A study of Mus musculus with 33 samples.

Results

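NRF2, encoded by Nfe2l2, is the transcription factor that switches on antioxidant and detoxification genes. In resting cells the adaptor KEAP1 holds NRF2 and directs it to degradation, and oxidants or electrophiles release it. Its targets make glutathione, regenerate reduced glutathione and thioredoxin, and supply the NADPH that both systems consume. The genes described here are Nfe2l2 itself and the target genes Gclc, Gclm, Slc7a11, Gsr, Txnrd1, Srxn1, Nqo1, G6pdx and Osgin1. They were chosen by symbol, 10 of the 56414 rows of the deposited table, and each symbol matched a row. All 10 passed the filter on low values (a mean normalised read count of at least 10) in both sets of libraries.

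The RNA came from organs of tumor-free C57Bl/6 mice. Nicotinamide (NAM, the amide of niacin) was given at 0.5% in the drinking water over 1, 3 or 14 days, and control mice were untreated. All libraries are from the same strain, with no genetic modification named in the labels, and the study's methods give female mice for its experiments in general. The 20 libraries labelled spleen comprise 5 per group, and the 13 labelled lymph node comprise 3 untreated, 2 treated for 1 day, 4 for 3 days and 4 for 14 days. The question is whether, and when, NAM moved the antioxidant genes in either organ.

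The tissue labels go against the organs' defining markers. Glycam1, a mucin made by high endothelial venules of lymph nodes, had normalised read counts of 108167 to 214210 in the libraries labelled spleen and of 1.59 to 12.4 in those labelled lymph node. Spic, the transcription factor of splenic red pulp macrophages, lay at 774 to 1295 under the spleen label and at 6117 to 10491 under the lymph node label. "Spleen label" and "lymph node label" therefore stand for the labels throughout, not for the organ. The 20 spleen-label libraries held between 18325061 and 54830743 whole reads, and the 13 others between 30424968 and 46733974. Depth went with the spleen-label 3-day group, whose 5 libraries (43632016 to 54830743 reads) all lay above the untreated ones (18325061 to 31486631). Its part in the 3-day values was not tested. These are bulk samples, in which fewer cells of a type and less RNA per cell cannot be told apart.

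NRF2 binds, with a small MAF partner, to the antioxidant response element, whose core is written TGACNNNGC or TGAGNNNGC. Stretches upstream of the RefSeq start were searched for both cores on both strands, 250 bases each (RefSeq promoters, GRCm38.p6, the assembly also called mm10). The table of promoters held 10 windows of 8 of these genes. TGACNNNGC was found in 4 of the 10 windows and in 10.2% of all 32851 windows of the same length. TGAGNNNGC was found in 3 of the 10 and in 14.4% of all windows. Either core was found in 7 of the 10 and in 23% of all windows. The cores are short and differ by a single letter, and a match is a description of letters, not a bound site. The windows of 3 genes are shown because the results below turn on them: Gclm and Nqo1, the genes that fell under the lymph node label, and Srxn1, which with G6pdx had the largest changes under the spleen label at 1 day. Capitals mark the matched core, on either strand.

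Gclm, chr3:122245307-122245556, plus strand: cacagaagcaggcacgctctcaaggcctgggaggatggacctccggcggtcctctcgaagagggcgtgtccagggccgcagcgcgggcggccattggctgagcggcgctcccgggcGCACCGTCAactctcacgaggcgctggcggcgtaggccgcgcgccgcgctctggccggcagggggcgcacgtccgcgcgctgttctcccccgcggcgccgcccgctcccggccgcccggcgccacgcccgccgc
Nqo1, chr8:107403206-107403455, minus strand: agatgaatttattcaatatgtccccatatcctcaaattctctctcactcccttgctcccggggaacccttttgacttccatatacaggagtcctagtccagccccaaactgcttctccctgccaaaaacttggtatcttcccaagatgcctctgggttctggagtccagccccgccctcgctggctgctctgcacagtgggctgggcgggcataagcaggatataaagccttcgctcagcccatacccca
Srxn1, chr2:152105274-152105523, plus strand: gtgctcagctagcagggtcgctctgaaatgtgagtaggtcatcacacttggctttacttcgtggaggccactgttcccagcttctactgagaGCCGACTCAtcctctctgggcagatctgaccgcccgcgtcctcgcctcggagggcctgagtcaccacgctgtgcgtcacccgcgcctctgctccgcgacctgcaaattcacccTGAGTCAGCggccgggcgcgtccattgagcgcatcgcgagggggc

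The Gclm window holds a single match, TGACGGTGC on the minus strand, 134 to 126 bases before the start. The Srxn1 window holds a pair, TGAGTCAGC on the plus strand 45 to 37 bases before the start, and TGAGTCGGC on the minus strand 158 to 150 bases before it. The Nqo1 window holds neither core in these letters. Of the remaining genes, G6pdx has TGACTGAGC at 57 to 49 bases, Nfe2l2 has TGACTCCGC at 240 to 232 bases, Osgin1 has TGAGTCAGC at 99 to 91 bases and Slc7a11 has TGAGAAAGC at 97 to 89 bases. Txnrd1 has TGACAAAGC at 92 to 84 bases before one of its 3 starts.

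The values are normalised read counts, in which the authors divided each library's reads per gene by a DESeq2 size factor. They are not per length, so levels are compared between groups and not between genes. Changes are log2 fold changes of the normalised count + 1, tested with limma, and a gene is called at an adjusted p under 0.05 over all genes tested.

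**Figure D1:**
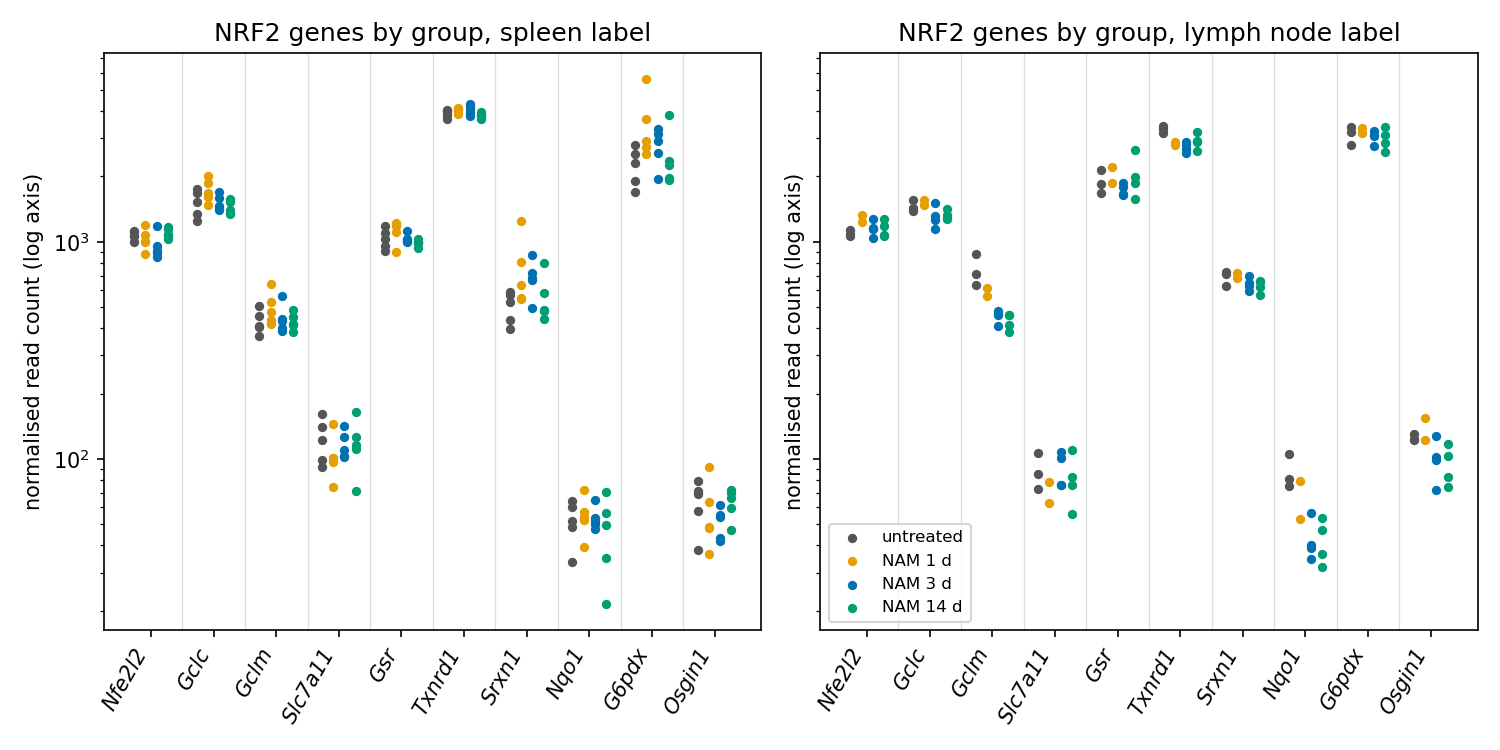
Normalised read count (log axis) of each of the 10 genes in every library, colored by group, for the spleen label (left) and the lymph node label (right); each point is a library. Gclm and Nqo1 under the lymph node label have their 3- and 14-day libraries below all 3 untreated ones, while under the spleen label the groups of every gene overlap.

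The called genes all lay under the lymph node label, and all were lower. At 3 days, 2 of the 10 genes were called, Gclm and Nqo1, both lower. Among all 18215 genes, 1.24% were called at 3 days and 0.906% were called lower. At 14 days 1 of the 10, Gclm, was called, again lower, against 0.791% of all genes called and 0.681% called lower. At 1 day limma called 0 of the 10, with 3 at an unadjusted p under 0.05 and 0 by edgeR and by DESeq2. Of all genes 1.21% were called by limma and 15% had an unadjusted p under 0.05. Between 14 and 3 days 0 were called, also 0 at an unadjusted p under 0.05 and 0 by edgeR and DESeq2, against 0.011% of all genes. The median log2 fold change of the 10 genes was 0.04 at 1 day, -0.13 after 3 days and -0.14 after 14 days, with 8 of 10 below 0 at 3 and at 14 days. Over all genes tested the median lay at 0.00 in each comparison.

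With limma, 0 of the 10 genes were called in the spleen-label libraries at any duration. At 1 day 2 genes had an unadjusted p under 0.05, edgeR called 0 and DESeq2 called 2 (G6pdx and Srxn1, both higher). Of all 18243 genes, limma called 16.6% at 1 day, 30.9% had an unadjusted p under 0.05 and DESeq2 called 18.5%, so the 2 of 10 lay near or below these shares. At 3 days 1 gene had an unadjusted p under 0.05 and edgeR and DESeq2 called 0, against 5.55% of all genes called by limma and 22% at an unadjusted p under 0.05. At 14 days 0 had an unadjusted p under 0.05 and both other tools called 0. The background there was 0% of all genes, with 510 at an unadjusted p under 0.05, 0 by edgeR and 1 by DESeq2. From 1 to 14 days 0 of the 10 were called by limma, edgeR or DESeq2, with 3 at an unadjusted p under 0.05, against 10.6% of all genes called by limma and 25.7% at an unadjusted p under 0.05. The median change of the 10 was 0.11 after 1 day, 0.03 after 3 days and -0.01 after 14 days, where that of all genes was 0.01, 0.00 and 0.00.

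Treated and untreated libraries did not overlap for 0 of the 10 genes under the spleen label at any duration, where 11.9% of all genes did not after 1 day, 5.06% after 3 days and 0.548% after 14 days. Under the lymph node label, 3 of 10 did not overlap at 1 day (Txnrd1 and Gclm lower, Nfe2l2 higher), against 32.6% of all genes in this comparison of 2 with 3 libraries. At 3 days these were Txnrd1, Gclm and Nqo1, 3 of 10 against 15.3%, and at 14 days Gclm, Nqo1 and Osgin1, 3 of 10 against 11.5%, all lower.

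**Figure D2:**
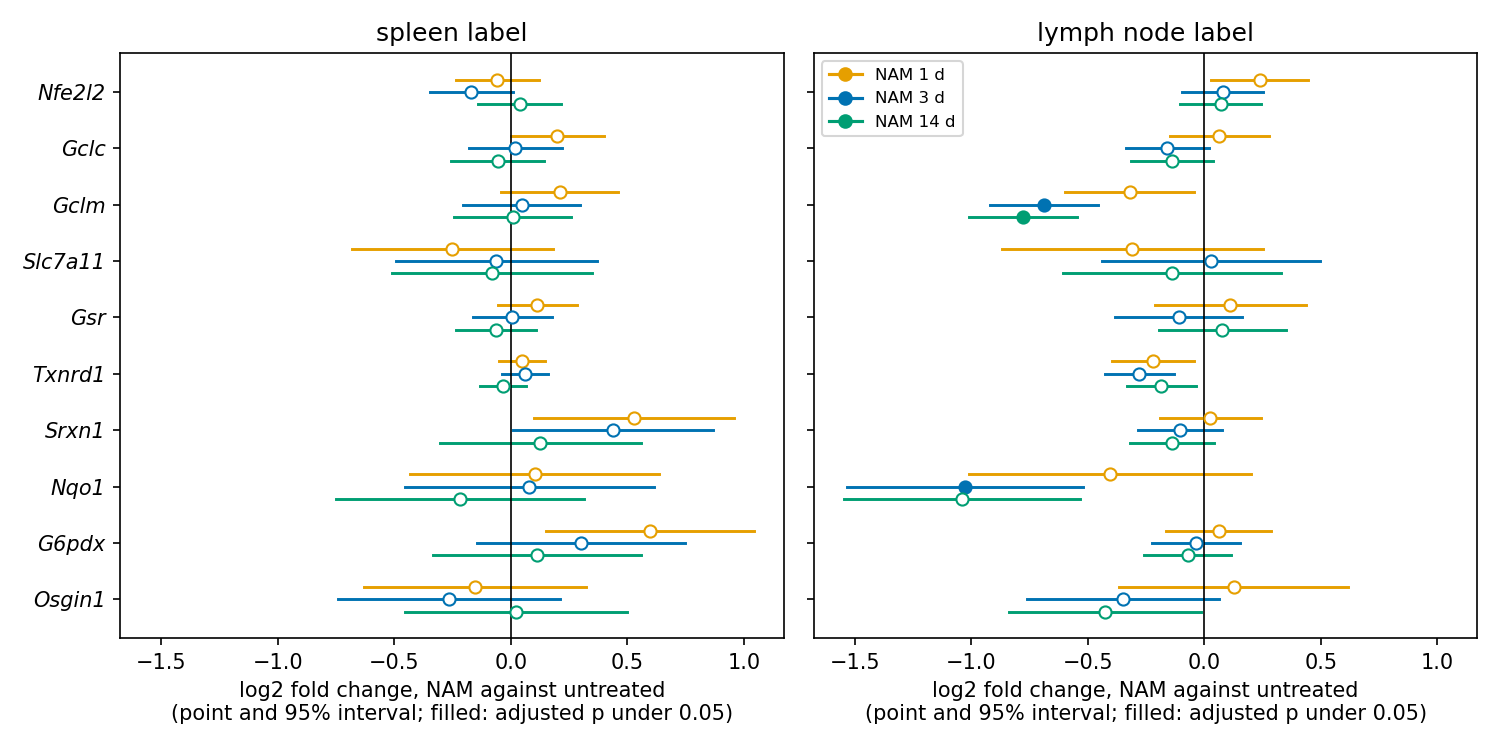
Log2 fold change, NAM against untreated, of each gene (points, with 95% intervals as lines) at 1, 3 and 14 days, for the spleen label (left) and the lymph node label (right); filled points have an adjusted p under 0.05. The filled points are Gclm at 3 and 14 days (-0.69 and -0.78) and Nqo1 at 3 days (-1.03), all under the lymph node label.

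Nfe2l2, the regulator, is on chromosome 2 from 75675513 to 75704666 (mm10, minus strand). Its lymph-node-label normalised counts were 1082, 1128 and 1062 untreated, and 1239 and 1335 at 1 day. Both 1-day libraries lay above all untreated ones, and the change of 0.24 (SE 0.10) was not called (adjusted p = 0.262). The means at 3 and 14 days, 1155 ± 93.1 (SD, n = 4) and 1148 ± 100.2 (SD, n = 4), differed from untreated by 0.08 and 0.07. The spleen-label 3-day libraries were at 1182, 892, 849, 912 and 954, and the untreated ones at 999, 1063, 1062, 1109.7 and 1125. Replicate 1 of the 3-day group lay above every untreated library and the other 4 lay below them all. The change was -0.17 (SE 0.09, adjusted p = 0.251), and without that replicate it was -0.25 (adjusted p = 0.0267). With library weights it was also -0.25 (adjusted p = 0.0044), a setting that called 4722 of 18243 genes there, against 1013 in the main fit. Of 20 fits that left out a single library, 1 passed. At 1 and 14 days the spleen-label changes were -0.06 and 0.04.

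Among 9 regulators and partners of NRF2 (Keap1, Cul3, Rbx1, Bach1, Maff, Mafg, Mafk, Sqstm1 and Nfe2l1), limma called 0 under the lymph node label at any duration, as did edgeR and DESeq2, with 3, 1 and 0 at an unadjusted p under 0.05 at 1, 3 and 14 days. Of all genes, limma called 1.21%, 1.24% and 0.791% there, and 15%, 14.8% and 11.8% had an unadjusted p under 0.05. Among the spleen-label results 1 was called at 1 day and 2 at 3 days, all higher, where 8.56% and 2.82% of all genes were called higher. From 1 to 14 days 1 was called lower, Rbx1 (-0.34, adjusted p = 0.0267), where 5.41% of all genes were. The higher ones were Rbx1, a subunit of the ubiquitin ligase that KEAP1 serves, at 1 day (0.39, SE 0.09, adjusted p = 0.00953) and 3 days (0.37), and Maff, a small MAF protein, at 3 days (0.30, adjusted p = 0.0333). Keap1 itself stayed between -0.13 and 0.09 against untreated across labels and durations and was called in none. Its mean was 2443 ± 165.6 untreated (SD, n = 5) and 2383 ± 113.8 at 1 day (SD, n = 5) under the spleen label.

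Gclm encodes the modifier subunit of glutamate-cysteine ligase, the enzyme of the first and rate-limiting step of glutathione synthesis. It lies on chromosome 3 from 122245557 to 122267215 (plus strand). In the lymph-node-label libraries, untreated samples were at 632, 878 and 714, and the 1-day libraries at 562 and 614. At 3 days the values were 482, 410.4, 472 and 461, and at 14 days 415, 384, 459.7 and 459.1. Every treated library lay below every untreated one, and the 3- and 14-day libraries lay below both 1-day libraries. Its change was -0.32 at 1 day (SE 0.13, adjusted p = 0.258), -0.69 at 3 days (SE 0.11, adjusted p = 0.00326) and -0.78 at 14 days (SE 0.11, adjusted p = 0.0029). As a fold this left 0.62 times the untreated level at 3 days and 0.58 times at 14 days. Gclm ranked 50th at 3 days and 12th at 14 days by p among all genes tested. Between 14 and 3 days the difference was -0.09 (95% interval -0.30 to 0.13). Of the exon bases of Gclm, 6291 in GENCODE, 296 overlap Gm17494 on the opposite strand, where reads cannot be assigned to one gene without strand, and 244 overlap the pseudogene Gm6061 on the same strand, where strand would not tell them apart.

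Gclm stood under the spleen label at 430 ± 53.9 untreated, 499.8 ± 88.6 after 1 day, 445 ± 70.2 after 3 days and 431 ± 37.7 at 14 days (SD, n = 5 each). The groups overlapped at each duration, with changes of 0.21, 0.05 and 0.01. The spleen-label change minus the lymph-node-label change was 0.53 at 1 day (SE 0.20, adjusted p = 0.149), 0.73 at 3 days (SE 0.18, adjusted p = 0.0429) and 0.78 at 14 days (SE 0.18, adjusted p = 0.07). In the joint fit of both labels, which treats the libraries of the labels as independent, 2 of the 10 genes were called at 3 days, Gclm and Txnrd1, both higher under the spleen label. Of all 17147 genes, 0.735% were called at 3 days and 0.525% in that direction. At 1 day and at 14 days limma called 0 of the 10, against 1.69% and 0.14% of all genes. Unadjusted p fell under 0.05 for 3 genes at 1 day and 2 at 14 days (17.1% and 4.85% of all genes), and DESeq2 called 0 and 1, the latter Gclm, while edgeR called 0 at both. The 3-day difference of Gclm lost its call in 13 of 33 fits that left out a single library. The highest adjusted p, 0.182, came without untreated replicate 2 of the lymph node label, the library with 878 normalised counts.

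Gclc, the catalytic subunit of the same ligase, lies on chromosome 9 from 77754533 to 77794488 (plus strand) and was called in no comparison. It was at 1456 ± 85.6 untreated (SD, n = 3), 1480.1 and 1561 at 1 day, 1309.6 ± 151 at 3 days and 1323 ± 62.7 at 14 days (SD, n = 4 each) under the lymph node label. The changes at 3 and 14 days were -0.16 (95% interval -0.34 to 0.02) and -0.14 (95% interval -0.32 to 0.04). Its spleen-label means were 1508 untreated, 1727 after 1 day, 1518 after 3 days and 1441 after 14 days (SD 214, 206, 126 and 102, n = 5 each). The 1-day change was 0.20 (SE 0.10, adjusted p = 0.163), and the change from 1 to 14 days -0.26 (SE 0.10, adjusted p = 0.0936).

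Slc7a11, the cystine transporter that feeds glutathione synthesis, lies on chromosome 3 from 49892525 to 50443614 (minus strand). Its libraries ranged from 56 to 110.6 under the lymph node label and from 71.2 to 164 under the spleen label. The groups overlapped in every comparison. The changes against untreated lay between -0.31 and 0.03, with SEs of 0.21 to 0.27. Gsr, which reduces oxidised glutathione, lies on chromosome 8 from 33653238 to 33698161 (plus strand). Its lymph-node-label group means ran from 1744 ± 104.6 at 3 days (SD, n = 4) to 2039 ± 247 at 1 day (SD, n = 2), with 1889 ± 228 untreated (SD, n = 3). The spleen-label means ran from 988 ± 32.6 at 14 days to 1124 ± 131 at 1 day (SD, n = 5 each), with 1037 ± 112 untreated. The changes against untreated lay between -0.11 and 0.11. From 1 to 14 days under the spleen label Gsr differed by -0.18 (SE 0.08, adjusted p = 0.176), and without 1-day replicate 1, the lowest of its group at 901, by -0.25 (adjusted p = 0.0303). Of 20 fits that left out a single library, 1 passed.

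Among 9 other genes of glutathione synthesis, transfer and export (Gss, Gsta4, Gstm1, Gstm5, Gstp1, Mgst1, Mgst2, Abcc1 and Abcc4), 3 were called under the spleen label at 1 day, all higher, beside 8.56% of all genes called higher there. These were Gstp1 (0.35, adjusted p = 0.02), Mgst2 (0.38, adjusted p = 0.0238) and Abcc1 (0.25, adjusted p = 0.0469), which encode a soluble and a microsomal glutathione transferase and an exporter of glutathione conjugates. From 1 to 14 days 1 of the 9 was called lower, Mgst2 (-0.37, adjusted p = 0.0337), beside 5.41% of all genes. Among the lymph-node-label results 1 was called at 3 days and 1 at 14 days, each time Gstm5, a further glutathione transferase, lower, where 0.906% and 0.681% of all genes were called lower. Its mean went from 525 ± 109 untreated (SD, n = 3) to 287 ± 34.8 at 3 days and 275 ± 50.4 at 14 days (SD, n = 4 each), a change of -0.86 (adjusted p = 0.00935) and -0.93 (adjusted p = 0.0104). Transferases of this family have similar copies, whose reads may be shared.

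Txnrd1, the cytosolic thioredoxin reductase, lies on chromosome 10 from 82833951 to 82897724 (plus strand). Untreated lymph-node-label libraries held 3320.2, 3431 and 3171 normalised counts, and the 1-day libraries 2802 and 2874. The 3-day libraries held 2553, 2779, 2683 and 2894, and the 14-day libraries 2623, 3216, 2926 and 2890.2. All 1- and 3-day libraries lay below all untreated ones, and 1 of the 4 at 14 days lay within the untreated range. The change was -0.22 at 1 day (SE 0.08, adjusted p = 0.226), -0.28 at 3 days (SE 0.07, adjusted p = 0.0654) and -0.19 at 14 days (SE 0.07, adjusted p = 0.281). At 3 days it passed with DESeq2 (adjusted p = 0.0126), with library weights (0.0255) and with quantile normalisation (0.0381). It also passed without replicate 2 of the 14-day group (0.04) or replicate 4 of the 3-day group (0.0468). These were 2 of 13 fits that left out a single library, in the others of which it did not pass (adjusted p up to 0.298). Txnrd1 varied little under the spleen label, with group SDs between 2.47% and 5% of the mean. The means there were 3907 untreated, 4039.9 after 1 day, 4074 after 3 days and 3819 after 14 days (SD 146, 99.8, 204 and 108, n = 5 each), and the changes were 0.05, 0.06 and -0.03. The difference between the labels' changes was 0.34 at 3 days (SE 0.08, adjusted p = 0.0353), and 0.27 at 1 day (SE 0.09, adjusted p = 0.0987). The 3-day difference lost its call in 12 of 33 fits that left out a single library, with an adjusted p of 0.142 without untreated replicate 2 of the lymph node label.

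Srxn1 encodes sulfiredoxin, which repairs over-oxidised peroxiredoxins, on chromosome 2 from 152105524 to 152111375 (plus strand). Untreated spleen-label libraries were at 398, 531, 437, 568 and 588. The 1-day libraries were at 552, 1247, 635, 806 and 548, the 3-day libraries at 866, 722, 681, 497 and 670.4, and the 14-day libraries at 441, 579.9, 482, 800.1 and 487. Replicate 2 of the 1-day group was the highest of all 20, and 3 of 5 libraries at 1 day and 4 of 5 at 3 days lay above every untreated one. Its change was 0.53 at 1 day (SE 0.21, adjusted p = 0.086), 0.44 at 3 days (SE 0.21, adjusted p = 0.218) and 0.13 at 14 days. With DESeq2 the 1-day change was 0.58 (adjusted p = 0.0367). Srxn1 ranged under the lymph node label from 569 to 726 over all 13 libraries, with changes of 0.03, -0.10 and -0.14. The difference between the labels' changes at 3 days was 0.54 (95% interval -0.01 to 1.09, adjusted p = 0.393).

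Of 6 other thioredoxin and peroxiredoxin genes (Txn1, Txnip, Txn2, Prdx1, Prdx6 and Txnrd2), 4 rose under the spleen label at 1 day, and the same 4 fell from 1 to 14 days. The background was 8.56% of all genes called higher in the first comparison and 5.41% called lower in the second. Both comparisons share the 1-day libraries. Prdx6, a peroxiredoxin, went from 4665 ± 247 untreated to 6700.2 ± 877 at 1 day, 5728 ± 446 at 3 days and 4761 ± 292 at 14 days (SD, n = 5 each). Its change was 0.51 at 1 day (SE 0.08, adjusted p = 0.00056), 0.29 at 3 days (adjusted p = 0.035) and -0.49 from 1 to 14 days (adjusted p = 0.00192). Prdx1 (0.45, adjusted p = 0.00405), Txnrd2, the mitochondrial thioredoxin reductase (0.47, adjusted p = 0.00495), and Txn1, thioredoxin itself (0.54, adjusted p = 0.00643), rose at 1 day as well. Txn1 lies outside the 3 genes that the naming rule takes from a list and was named after its values were seen. Txnrd2 fell at 3 days under the lymph node label (-0.45, adjusted p = 0.0124), and its changes in the labels differed by 0.81 at 3 days (adjusted p = 0.00779). At 1 day they differed by 0.77 (adjusted p = 0.0147). The lymph-node-label mean of Txnrd2 was 1173 untreated (n = 3) and 947.5 at 1 day (n = 2), a fall that was not called. Replicate 1 of that 1-day group stands apart by its pancreatic acinar markers. Txnip, the inhibitor of thioredoxin, rose at 1 day under the lymph node label (0.79, adjusted p = 0.00582), and the labels differed by -1.07 (adjusted p = 0.00487).

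Nqo1, the quinone reductase often used as a readout of NRF2, lies on chromosome 8 from 107388225 to 107403273 (minus strand). Its untreated lymph-node-label libraries were at 80.6, 105.9 and 75.1, and the 1-day libraries at 52.9 and 79.5. The 3-day libraries were at 56.3, 34.5, 39.1 and 40.01, and the 14-day libraries at 36.5, 32, 53.7 and 46.9. All 8 libraries at 3 and 14 days lay below all untreated ones, and at 1 day the groups overlapped. Its change was -0.41 at 1 day (SE 0.29, adjusted p = 0.538), -1.03 at 3 days (SE 0.24, adjusted p = 0.0458) and -1.04 at 14 days (SE 0.24, adjusted p = 0.0546). The folds were 0.49 and 0.49 of the untreated level at 3 and 14 days, and the 14-day level differed from the 3-day level by -0.01 (95% interval -0.48 to 0.46). The levels are low, and the calls sat at the threshold. The 3-day call was lost in 10 of 13 fits without a single library, with an adjusted p of up to 0.267 (without untreated replicate 2, the library at 105.9). The 14-day change passed with edgeR (adjusted p = 0.0486) and DESeq2 (adjusted p = 0.00573). Nqo1 ran under the spleen label from 21.5 to 72.3 over all 20 libraries, and the changes were 0.10, 0.08 and -0.22, with SEs of 0.26. The labels' changes differed by 1.11 at 3 days (95% interval 0.35 to 1.87, adjusted p = 0.156).

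**Figure D3:**
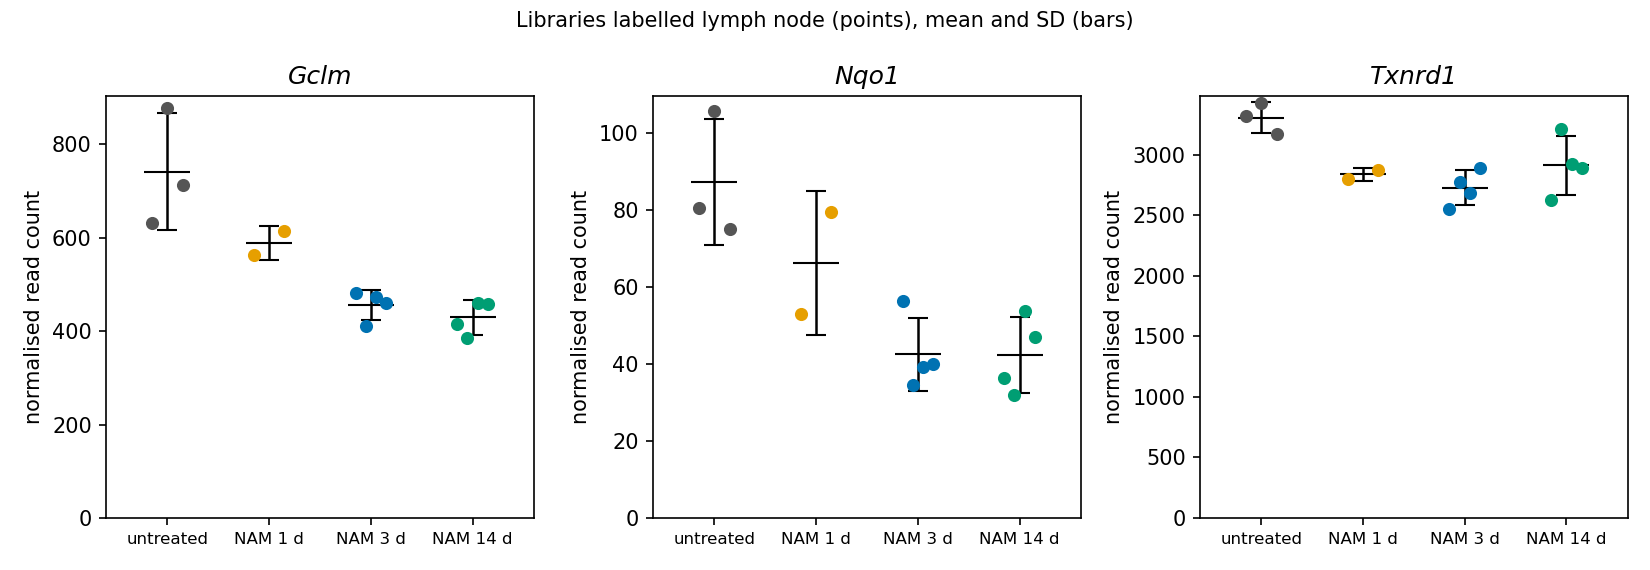
Normalised read counts of Gclm, Nqo1 and Txnrd1 under the lymph node label by group (points: libraries; bars: mean and SD; n = 3, 2, 4 and 4). The mean of Gclm is 741 untreated, 456 at 3 days and 429 at 14 days (both called), that of Nqo1 is 87.2, 42.5 and 42.3 (called at 3 days), and that of Txnrd1 is 3307, 2727 and 2914 (neither called).

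G6pdx encodes glucose-6-phosphate dehydrogenase, the entry to the pentose phosphate pathway and its NADPH, on chromosome X from 74409486 to 74429161 (minus strand). Of its 3080 exon bases in GENCODE, 418 overlap Ikbkg on the opposite strand. Its untreated spleen-label libraries were at 1692, 2784, 1906, 2547 and 2316, and the 1-day libraries at 2736, 5608, 2906, 3668 and 2550.4. At 3 days they were at 3131, 2907, 2559.6, 1951 and 3311, and at 14 days at 1963, 2259, 1931, 3854 and 2364. A single library in each of the 1- and 14-day groups stood high, and every group overlapped the untreated range. Its change was 0.60 at 1 day (SE 0.21, adjusted p = 0.0629), 0.30 at 3 days (SE 0.21, adjusted p = 0.446) and 0.11 at 14 days. The 14-day change ran from -0.06 to 0.19 in fits that left out a single library, and was lowest without 14-day replicate 4. At 1 day G6pdx passed with DESeq2 (0.63, adjusted p = 0.0234), without 14-day replicate 4 (adjusted p = 0.038) and without 1-day replicate 5 (0.69, adjusted p = 0.0416). Of 20 fits that left out a single library, 2 passed. From 1 to 14 days the change was -0.48 (adjusted p = 0.157), and without 14-day replicate 4 it was -0.66 (adjusted p = 0.0487), with 1 of 20 such fits passing. Under the lymph node label the 4 group means lay between 2982 and 3255, with changes of 0.06, -0.04 and -0.07 (95% interval at 14 days -0.26 to 0.12).

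Among 5 other genes of NADPH supply (Pgd, Taldo1, Tkt, Me1 and Idh1), 1 was called under the spleen label at 1 day, where 8.56% of all genes were called higher. This was Taldo1, transaldolase of the pentose phosphate pathway, higher by 0.51 (SE 0.14, adjusted p = 0.017). With limma, edgeR and DESeq2, 0 of the 5 were called in every other comparison. Unadjusted p lay under 0.05 for 3 of them under the lymph node label at 14 days, for 1 under the spleen label from 1 to 14 days, for 1 in the difference between labels at 1 day, and for 0 in the rest of these. In the spleen-label 1-day comparison it lay under 0.05 for 3 of the 5. In the order named, the shares of all genes with an unadjusted p under 0.05 were 11.8%, 25.7%, 17.1% and 30.9%.

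Osgin1, a gene induced by oxidative stress whose product restrains growth, lies on chromosome 8 from 119437162 to 119446255 (plus strand). Its untreated lymph-node-label libraries were at 122, 130.1 and 124, the 1-day libraries at 154 and 122, the 3-day libraries at 71.8, 103, 99.2 and 128, and the 14-day libraries at 117, 104, 74.3 and 82.8. All 14-day libraries lay below the untreated ones and 1 of the 3-day libraries did not. Its change was -0.35 at 3 days (SE 0.19, adjusted p = 0.421) and -0.43 at 14 days (SE 0.19, adjusted p = 0.402), neither called. Osgin1 ran under the spleen label from 36.6 to 91.9 over all libraries, with changes of -0.15, -0.27 and 0.02 and SEs of 0.23.

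Of 9 genes of haem breakdown, ferritin and detoxification (Hmox1, Blvra, Blvrb, Fth1, Ftl1, Cbr1, Cbr3, Ephx1 and Ugdh), limma called 0 under the spleen label at any duration, with 3, 1 and 0 at an unadjusted p under 0.05 at 1, 3 and 14 days. There edgeR called 1 and DESeq2 called 2 at 1 day, and both called 0 at 3 and 14 days. Of all genes, limma called 16.6%, edgeR 16.3% and DESeq2 18.5% at 1 day. Unadjusted p lay under 0.05 for 30.9%, 22% and 2.8% of all genes at 1, 3 and 14 days. In the lymph-node-label libraries 1 was lower at 3 days and 3 at 14 days, where 0.906% and 0.681% of all genes were called lower. Blvrb, a biliverdin and flavin reductase abundant in red cells, fell from 8987 ± 553 untreated (SD, n = 3) to 6893 ± 484 at 3 days and 6777 ± 373 at 14 days (SD, n = 4 each), by 0.38 and 0.41 on the log2 scale (adjusted p = 0.00935 and 0.0115). Hmox1, the inducible haem oxygenase, was at 43052 ± 4104 untreated, 30785 ± 6427 at 3 days and 25367 ± 6710 at 14 days (SD, n = 3, 4 and 4). Its change at 14 days was -0.79 (adjusted p = 0.0304). Ftl1, the ferritin light chain, changed by -0.38 at 14 days (adjusted p = 0.0304).

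Markers of red cell precursors moved with the lymph-node-label results. Of the 10 erythroid genes listed, among them Alas2, Klf1, Car1, Epor and Ermap, 9 were in the table, and none of these was at 0 in any library of that label. Their mean log2 level ran from 12.30 to 12.56 in the untreated libraries, was 11.73 in both 1-day libraries, lay between 8.55 and 10.98 after 3 days, and between 10.47 and 11.28 after 14 days. All treated libraries lay below all untreated ones. With limma 8 of the 9 were called lower at 3 days (6 with edgeR, 8 with DESeq2) and 4 of 9 at 14 days, where 0.906% and 0.681% of all genes were called lower. The erythroid list, like the others, was chosen with earlier results of these data known. Klf1, an erythroid transcription factor, changed by -3.18 and -2.14 on the log2 scale. The 3-day library with the lowest erythroid level, replicate 2, also had the lowest Gclm and Nqo1 of its group. In the 14-day group the library with the lowest erythroid level, replicate 3 at 10.47, had the highest Gclm (459.7) and Nqo1 (53.7). The library with the highest level there, replicate 4 at 11.28, had Gclm at 459.1 and Nqo1 at 46.9. By group mean the erythroid level was lower at 3 days (9.97) than at 14 days (10.73), while Gclm was at 456 and 429. The genes whose log2 values most resembled Gclm over the 13 libraries were Gata1 (Pearson r = 0.98), Gfi1b (0.96) and Mt2 (0.95), the first pair being erythroid and megakaryocytic transcription factors and Mt2 a metallothionein. For Nqo1 they were Mt2 (0.96), Car1 (0.95), a carbonic anhydrase of red cells, and Gclm (0.94). After subtracting group means, r was 0.89 for Gclm with Gata1 and 0.78 for Nqo1 with Gclm. All of these values come from the same libraries, and the part of erythroid cells in the Gclm and Nqo1 results was not tested. Under the spleen label the erythroid level was 3.87 to 6.04, with 4 of the 9 genes at 0 in at least 1 library.

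**Figure D4:**
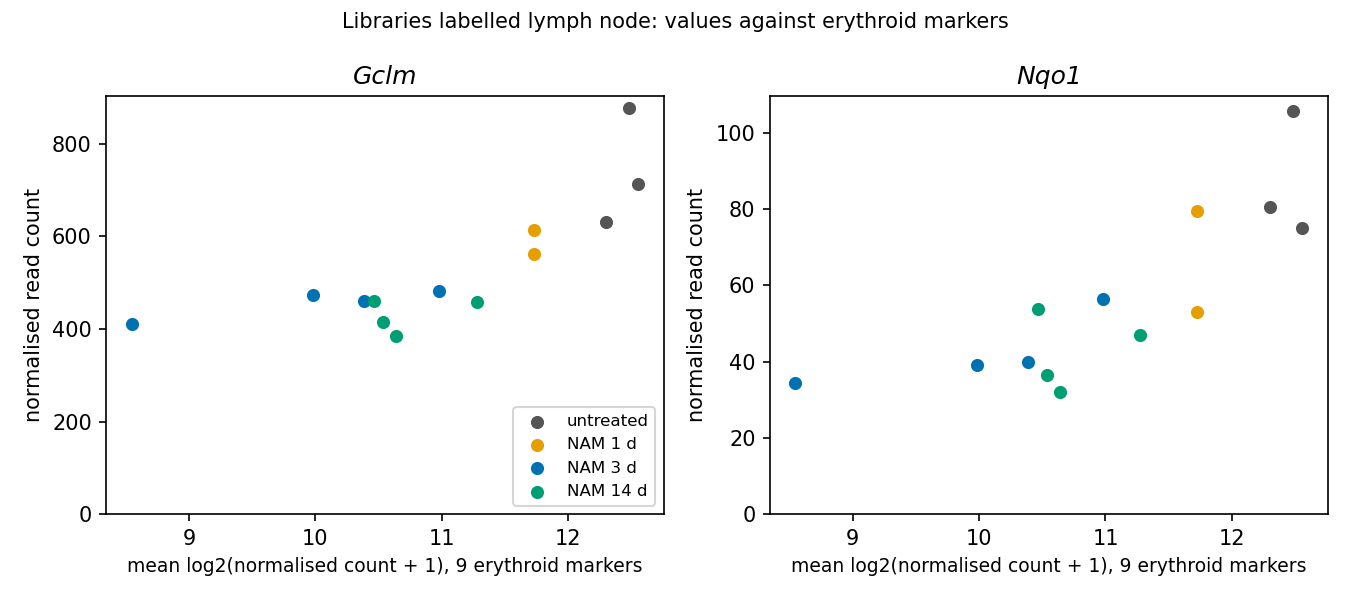
Normalised read counts of Gclm (left) and Nqo1 (right) against the mean log2(normalised count + 1) of 9 erythroid markers in the 13 libraries of the lymph node label; points are libraries, colored by group. The untreated libraries sit at the upper right (erythroid level 12.30 to 12.56), and the 3- and 14-day libraries at 11.28 or below.

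Neutrophil markers (10 genes) had a mean log2 level under the lymph node label of 9.53 to 10.52 in untreated libraries and of 8.80 to 9.85 at 14 days, with 3 of 10 called lower then, against 0.681% of all genes. Their level was 10.42 to 11.12 in the 1-day libraries and 10.01 to 10.87 in the 3-day libraries. Between 14 and 3 days limma called 1 of the 10 lower, against 0.011% of all genes, edgeR called 0 and DESeq2 3. All 10 had an unadjusted p under 0.05 there, against 5.84% of all genes. Red pulp macrophage markers there had a mean log2 level between 12.83 and 13.53 in every library. Of these 10, 1 was called higher at 1 day (C1qa), against 0.884% of all genes, in the comparison of 2 with 3 libraries. At 14 days 1 was called lower (Hmox1, which is also in the haem list), against 0.681% of all genes. DESeq2 called 3 at 14 days, against 2.09% of all genes. C1qa was named after its values were seen. Pancreatic acinar markers were at 13.45 in replicate 1 of the 1-day group and at 2.07 or below in the other 12, so the 1-day comparison includes a library that stands apart. Without it the 1-day change rests on a lone library, assumed to vary like the other groups, and was -0.26 for Gclm, -0.12 for Nqo1, -0.20 for Txnrd1 and 0.29 for Nfe2l2, none called, against -0.32, -0.41, -0.22 and 0.24 with it.

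Adipocyte markers varied between the libraries of the spleen label. The 10 markers, none at 0 in any library, had a mean log2 level of 10.94 to 13.39 in untreated libraries and of 12.78 to 14.89 in 1-day libraries. In the 3-day libraries it was 11.72 to 13.78, and in the 14-day libraries 11.57 to 13.88. At 1 day 1 of the 10 was called higher, by limma, edgeR and DESeq2, where limma called 8.56% of all genes higher. At 3 and 14 days limma called 0, with 0 at an unadjusted p under 0.05 and 0 by edgeR and DESeq2. Untreated replicate 1 had the lowest adipocyte level and the lowest G6pdx and Srxn1 of all 20 libraries, and 1-day replicate 2 had the highest of all 3. In that library the 7 epithelial markers were also highest, at 11.32, and Gclc and Gclm were at their highest of all 20, at 2004 and 639. The 14-day library that stood high in G6pdx and Srxn1, replicate 4, had the highest adipocyte level of its group. Over the 20 libraries the genes most like G6pdx were Rab34 (Pearson r = 0.95), Slc25a10 and Pdhb (both 0.94). Slc25a10 is the mitochondrial dicarboxylate carrier and Pdhb a subunit of pyruvate dehydrogenase. Those most like Srxn1 were Cyb5b (0.95), Zfp664 (0.94) and G6pdx (0.93). Neutrophil markers under the spleen label had a mean log2 level of 4.20 to 6.72 untreated and 5.99 to 9.43 in the 1-day libraries, which overlap, with a median change of 1.43 at 1 day. Of these 10, limma called 1 higher at 1 day, again beside 8.56% of all genes, edgeR 3 and DESeq2 6. Of 7 high endothelial venule markers 2 were called lower at 1 day and 2 at 3 days, where 8.05% and 2.74% of all genes were called lower. Of 10 red pulp macrophage markers under that label, 1 was called higher and 1 lower at 1 day and at 3 days, and 1 higher and 3 lower from 1 to 14 days. The shares of all genes called higher and lower were 8.56% and 8.05% at 1 day, 2.82% and 2.74% at 3 days, and 5.22% and 5.41% from 1 to 14 days. Their mean log2 level overlapped between groups, at 9.99 to 10.51 untreated, 10.08 to 10.46 in 1-day libraries and 9.92 to 10.17 in 14-day libraries. The part of these cell types in the peroxiredoxin, thioredoxin and other results at 1 day, and from 1 to 14 days, was not tested. The part of adipocyte RNA in the G6pdx and Srxn1 values was not tested. Without 1-day replicate 2 the change at 1 day was 0.41 for G6pdx (adjusted p = 0.171) and 0.33 for Srxn1 (adjusted p = 0.231). Under the lymph node label, where G6pdx and Srxn1 changed by 0.14 or less in either direction, 6 of the 10 adipocyte markers were at 0 in at least 1 library.

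**Figure D5:**
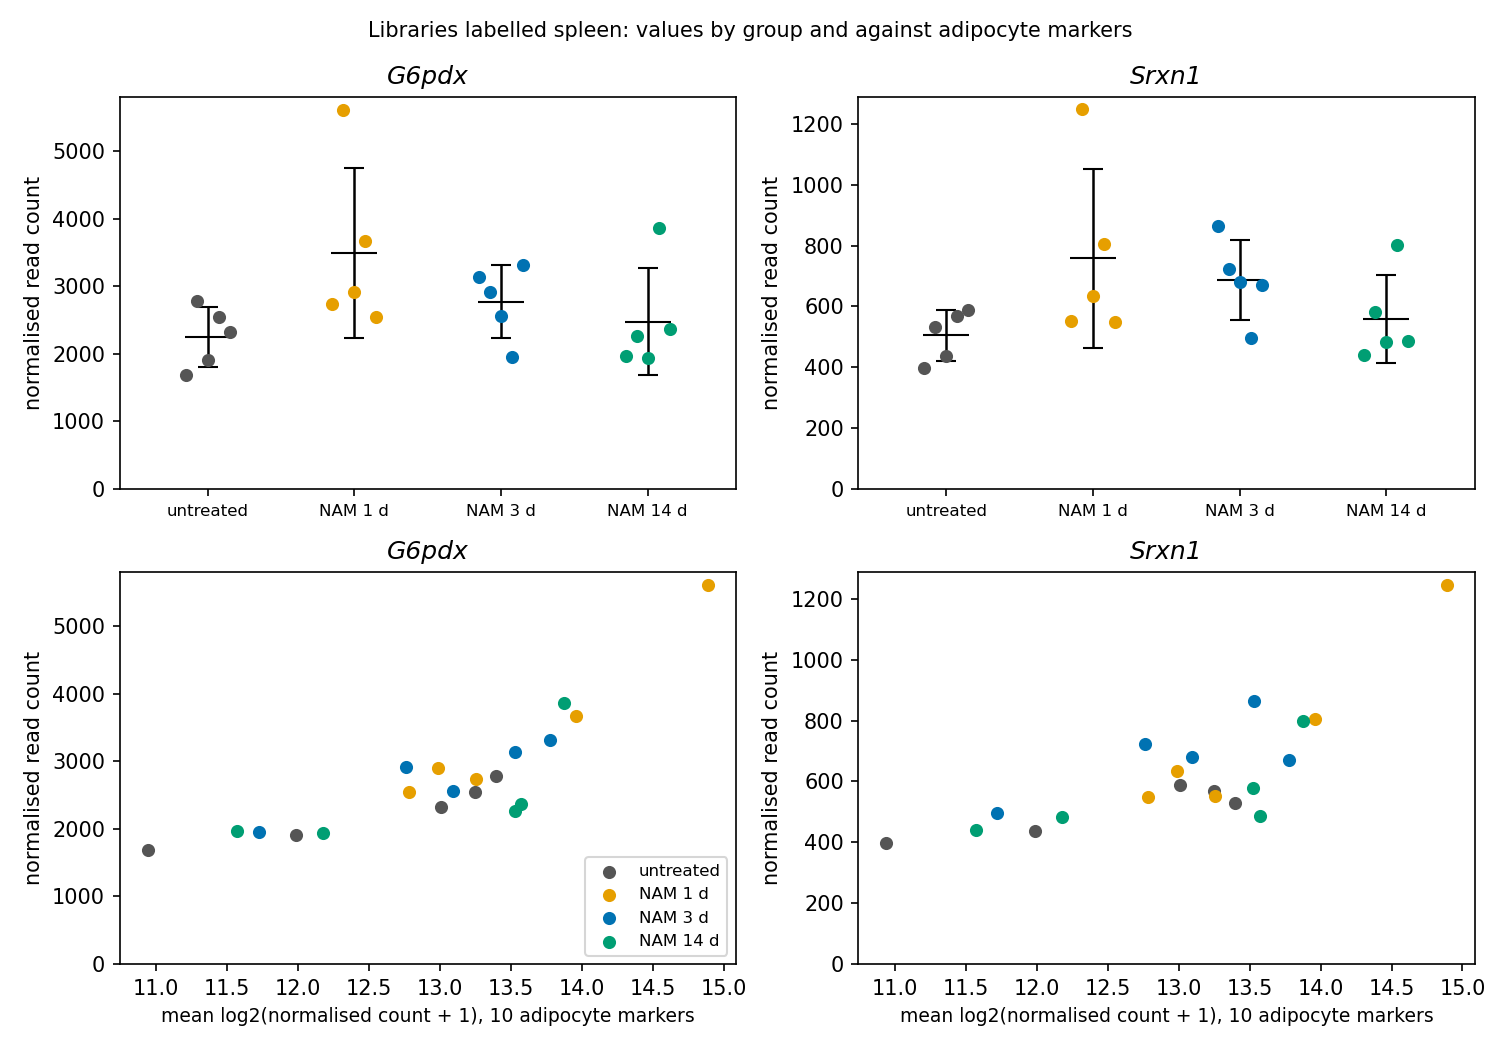
Top: normalised read counts of G6pdx and Srxn1 under the spleen label by group (points: libraries; bars: mean and SD; n = 5 each). Bottom: the same values against the mean log2(normalised count + 1) of 10 adipocyte markers; 1-day replicate 2, at 14.89, has the highest G6pdx (5608) and Srxn1 (1247), and untreated replicate 1, at 10.94, the lowest (1692 and 398).

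Levels without treatment are given as a description. The means under the spleen and the lymph node label were 430 and 741 for Gclm, 51.5 and 87.2 for Nqo1, 63.1 and 125 for Osgin1, and 1037 and 1889 for Gsr. Slc7a11 stood the other way, at 123 and 88.3, as did Txnrd1, at 3907 and 3307. Nfe2l2 (1072 and 1091) and Gclc (1508 and 1456) lay within 0.05 of each other on the log2 scale. The sets of libraries were scaled separately, the median log2 ratio of 17147 genes being -0.15, and no test was made of these levels. At 3 and 14 days of NAM the lymph-node-label values of Gclm (456 and 429) and Nqo1 (42.5 and 42.3) stood beside 430 and 51.5 in the untreated spleen-label libraries. With separate scaling, no likeness between the labels is read from these values.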

How the data were processed

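One table was used, in which the authors deposited a signal per gene and library: reads divided by a DESeq2 size factor, on a linear scale. The labels give paired-end mRNA sequencing, mm10, STAR 2.4.0 and DESeq2. Strand use in counting is not given in the sources used here. The table returned whole reads for 100% of values, within 0.01. The sets of the 2 labels were scaled separately (recomputed size factors differed by ratios of 0.962 to 0.972 under the lymph node label and 0.9999 to 1.0001 under the spleen label), so levels were tested within a label, and only the changes were tested between labels. Levels of the labels are set side by side as a description alone. No replicate libraries were identical, 0 of 56 pairs. The labels do not say whether an animal gave both organs, or that libraries came from separate animals, so p-values measure the spread between libraries.

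Values were tested as log2(normalised count + 1), which understates the change of low genes, with limma 3.58.1 (R 4.3.3), intensity trend, with the 4 groups of each label fitted together, genes with a mean of at least 10, two-sided, with Benjamini-Hochberg adjustment over 18243 and 18215 genes and a threshold of 0.05. Differences between the labels' changes came from a joint fit over 17147 genes, which assumes that the libraries of the labels are independent, so that no animal gave both organs. edgeR 4.0.16 and DESeq2 1.42.0 ran on the recovered reads as alternatives. The limma fits were also run on simulated data, the outcome of which is not reported here. Depth limits genes with few reads, such as Nqo1. The genes described and all gene lists were chosen with earlier results of these data known. All 10 genes are named, and per list the up to 3 called genes with the smallest adjusted p. Resemblance is Pearson's r on log2 values, without a test. Not every marker gene's own value is reported here.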

Additional observations from a re-analysis of the deposited data

Results flagged for a closer look

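Single libraries stood far from the rest of their group in 2 of 60 groups of values examined, where chance gives about 1 in 20. Under the spleen label, Gsr was at 1123 in replicate 4 of the 3-day group, against 1002 to 1033 in the others. G6pdx was at 3854 in replicate 4 of the 14-day group, against 1931 to 2364 in the others. The labels differed in their 3-day change, by the test of the difference itself, for Gclm (0.73, adjusted p = 0.0429) and Txnrd1 (0.34, adjusted p = 0.0353), both higher under the spleen label.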

How the results depend on the processing

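Across 110 changes of single genes and 3520 alternative values, 0 reversed a called change, 45 lost a call, 33 gained one, and 100 changed sign where neither value was called. The causes were not tested. In the lymph-node-label libraries Gclm kept its call at 3 and 14 days in all 10 other settings with an adjusted p and all 13 fits without a single library, with an adjusted p of up to 0.0375. The number of the 10 genes called at 3 days there (2 as reported) was 1 with no filter, 1 with the groups compared alone and 1 with the replicate block, where Nqo1 had an adjusted p of 0.0887, 0.0672 and 0.101. It was 3 with DESeq2 and with library weights, each adding Txnrd1. With quantile normalisation Nqo1 had 0.077 and Txnrd1 was called in its place. At 14 days (1 as reported) the number was 2 with DESeq2, edgeR, library weights, a pseudocount of 5 and a rule of unadjusted p under 0.05 with a 1.5-fold change, each adding Nqo1. For the difference between labels at 3 days (2 as reported) it was 4 with library weights, 0 with no filter, 0 with the groups compared alone and 1 with the replicate block, where Txnrd1 was called (adjusted p = 0.0493) and Gclm lost its call (adjusted p = 0.072). At 14 days (0 as reported) it was 1 with DESeq2, library weights and quantile normalisation, and 2 with the 1.5-fold rule. The spleen-label number (0 as reported) was 2 with DESeq2 and 1 with the 1.5-fold rule at 1 day, and 1 with library weights at 3 days.

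Leaving out single libraries gave 0 to 1 gene under the spleen label at 1 day, at 3 days and from 1 to 14 days, 1 to 3 under the lymph node label at 3 days, 1 to 2 at 14 days, and for the difference between labels 0 to 2 at 3 days and 0 to 1 at 14 days. Nqo1 at 3 days lost its call (adjusted p = 0.0534 to 0.267) without any untreated library, 3-day replicates 2, 3 or 4, 14-day replicates 1 or 4, or either 1-day library. It gained one at 14 days without 14-day replicate 3 (0.0403) or 3-day replicates 1 or 2 (0.0446 and 0.0495). The 3-day difference of Gclm lost its call (0.051 to 0.182) without lymph-node-label untreated replicates 2 or 3, any 3-day replicate or 14-day replicate 1, or spleen-label untreated replicates 1 to 3 or 3-day replicates 2, 3 or 5. That of Txnrd1 lost it (0.051 to 0.142) without any lymph-node-label untreated library or 3-day replicates 1 to 3, or spleen-label untreated replicates 2 or 4 or 3-day replicates 2 to 5. The 14-day difference of Gclm gained a call without lymph-node-label untreated replicate 1 (0.0413), spleen-label 3-day replicate 1 (0.0348) or 1-day replicate 2 (0.029).

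Counts over all genes moved by more than 1.5 times in these cases, beside the 1.5-fold rule, which gave 204 to 1497. For the spleen label at 3 days, 1013 became 1686 with DESeq2, 4722 with library weights, 572 with no filter and 140 with the groups compared alone. For the lymph node label, 221 at 1 day became 540 with DESeq2, 139 with no filter and 132 with the replicate block, 226 at 3 days became 493 with DESeq2 and 557 with library weights, and 144 at 14 days became 381, 278 and, with the groups compared alone, 55. The 2 genes between 14 and 3 days became 55 with DESeq2, 4 with the groups compared alone and with the replicate block, and 1 with edgeR and with no filter, and the 0 of the spleen label at 14 days became 1 with DESeq2 and with no filter. For the difference between labels, 290 at 1 day became 660 with DESeq2, 882 with library weights, 151 with no filter and 148 with the groups compared alone, 126 at 3 days became 337, 1944 and, with the groups alone and the block, 80 and 79, and 24 at 14 days became 42 with DESeq2 and 4 with the groups compared alone.

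Replicate numbers recur across groups but did not pair the libraries. Same-numbered libraries correlated in their deviations at -0.50 to 0.47 under the spleen label (13 of 30 pairs over 0.1) and at -0.11 to 0.08 under the lymph node label (0 of 16), and a library correlated best with its own number in 4 of 20 and 1 of 13 cases.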
